A study of Mus musculus with 4 samples.

Results

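Gapdh encodes glyceraldehyde-3-phosphate dehydrogenase, the glycolytic enzyme that oxidises glyceraldehyde 3-phosphate, and Rps6 encodes a protein of the small (40S) ribosomal subunit that S6 kinases phosphorylate downstream of mTOR. In a deposited table of KEGG pathways, each was counted many times over, because many Ensembl gene IDs were mapped to the same Entrez gene. The entries were found by the Entrez ID of each gene in that table: Gapdh had 30 Ensembl IDs and Rps6 had 13, together 43 of the 2333 IDs in the table. Both genes were chosen by this number of IDs, the highest and the next highest among 2074 Entrez genes, so the number is a description and has no test.

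The study compared N6-methyladenosine (m6A) on RNA between MIN6 cells that had received a control vector and MIN6 cells that had received a GR expression vector. MIN6 is a mouse insulinoma line, of strain C57BL/6 per the labels, with which the pancreatic beta cell is modelled; GR is read here as the glucocorticoid receptor, which the labels give by its abbreviation alone. The mark is a methyl group on adenosine that is common in mRNA and bears on its splicing, translation and decay. Each of the 2 arms had 1 input library and 1 library from immunoprecipitation with an anti-m6A antibody, made from RNA taken 24 hours after transfection with 10 µg of plasmid per dish. Without replicates, and with no value per library in the tables used, the depth is unknown, and no level, fold or direction of change can be given for Gapdh, Rps6 or the IDs mapped to them. Cell type markers could be looked up only as being listed among genes related to differential peaks: 9 of 12 beta cell markers were listed, 0 of 6 exocrine and duct markers, 1 of 4 markers of other islet endocrine cells (Gcg) and 1 of 4 of blood and stroma (Cd68), beside 25.2% of all protein-coding genes of the reference.

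Both genes are housekeeping genes, active in nearly every cell, and their abundant mRNAs have been copied back into the mouse genome many times. Such processed pseudogenes are made from spliced mRNA, so they lack the introns of the parent gene and resemble its transcript. A short read from a near-identical stretch cannot be assigned by its sequence to the gene or to a copy. How such reads were treated upstream is not given in the sources used here, so a differential peak on a copy and one on the parent transcript cannot be told apart in these tables.

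The sequences before the starts of the members are shown for both parent genes and for the model that had one in a reference table. Of the 43 IDs, 3 had an entry in a RefSeq table of gene starts (GRCm38.p6): Gapdh, Rps6 and Gm16254, a long non-coding RNA mapped to Rps6. Each sequence is the 250 bases before the start that the table gives, 5′ to 3′ on the minus strand, and covers chr6:125165774-125166023 for Gapdh, chr4:86857368-86857617 for Rps6 and chr10:7608676-7608925 for Gm16254. The Rps6 and Gm16254 windows adjoin the RefSeq span of their gene. The Gapdh window lies inside the span of Gapdh, which reaches to 125166467 on chromosome 6, so it precedes a start within the gene and not its outermost 5′ end. Capitals mark AGAACA or its complement TGTTCT, the half-site of the sequence that the glucocorticoid receptor binds. This motif was searched on both strands and was chosen after the windows had been read.
Gapdh: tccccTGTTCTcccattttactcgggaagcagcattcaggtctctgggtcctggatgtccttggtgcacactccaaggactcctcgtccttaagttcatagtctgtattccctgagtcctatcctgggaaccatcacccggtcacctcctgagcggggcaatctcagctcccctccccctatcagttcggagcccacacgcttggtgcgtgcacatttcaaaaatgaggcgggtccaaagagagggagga
Rps6: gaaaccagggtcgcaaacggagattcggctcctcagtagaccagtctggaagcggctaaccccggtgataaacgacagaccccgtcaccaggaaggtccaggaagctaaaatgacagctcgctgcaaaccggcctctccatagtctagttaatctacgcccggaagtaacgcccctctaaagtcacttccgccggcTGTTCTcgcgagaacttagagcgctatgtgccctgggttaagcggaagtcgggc
Gm16254: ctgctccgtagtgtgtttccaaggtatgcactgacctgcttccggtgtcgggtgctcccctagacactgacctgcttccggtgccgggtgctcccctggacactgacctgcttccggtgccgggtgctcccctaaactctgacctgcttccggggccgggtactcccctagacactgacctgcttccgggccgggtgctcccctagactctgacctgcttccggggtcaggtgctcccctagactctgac
The Gapdh and Rps6 windows each held 1 match, with its first base 245 bases (Gapdh) and 54 bases (Rps6) before the start that the table gives, and the Gm16254 window, which repeats a short unit along its length, held 0. The motif was present in 5284 of 32851 windows of this length (16.1%). With 1 model in the table and the motif chosen after reading, the parent genes and the models were not compared. A match is a run of letters, and no table used here gives binding or a peak in these windows.

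Of the 2074 Entrez genes in the pathway table, 1911 (92.1%) had 1 Ensembl ID, and 163 had several. The next genes after Gapdh with 30 IDs and Rps6 with 13 were Hmgb1, a chromatin protein, with 10 and Ftl1, the ferritin light chain, with 8. H3f3a and Crb1 followed with 6 each and Cycs and Hnrnpa3 with 5 each, before 7 genes tied at 4, so the 10 genes with the most IDs cannot be told from the tie. The table held 259 IDs in excess of its genes, and the models of Gapdh and Rps6 made up 41 of them (15.8%). For Gapdh and Rps6 the gene itself was among its IDs. By exact match of symbols, this was found for all but 34 of the 163 genes with several IDs. A gene named by another symbol in the reference counts among the 34, so not all of them need lack their own ID. H4c18, for example, was among the 34 although 0 of its 4 IDs were without a deposited name. Hmgb1 and Ftl1 were also among those 34, and all of their IDs (10 and 8) were without a deposited name.

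**Figure D1:**
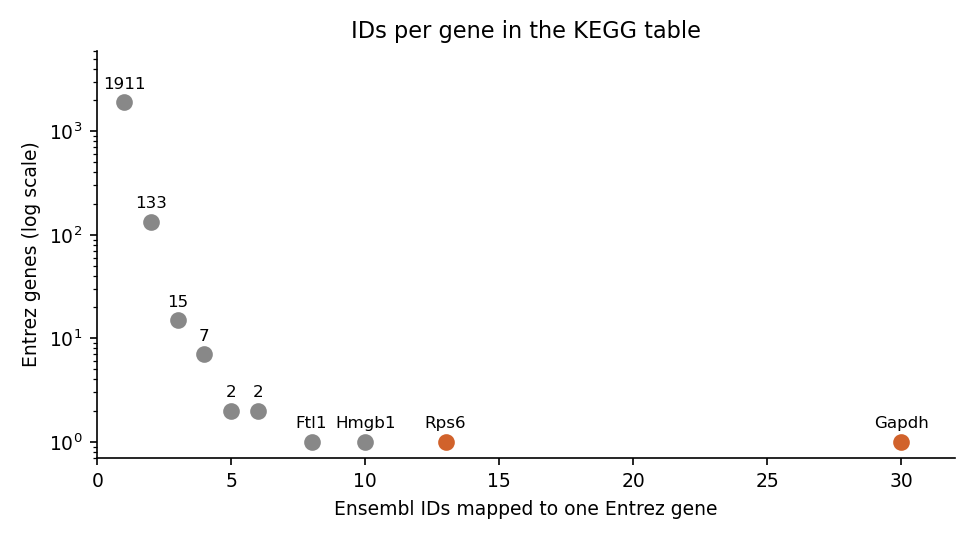
Number of Entrez genes (y axis, log scale) by the number of Ensembl IDs mapped to each in the KEGG table (x axis); points with more than 1 gene carry the count. Gapdh with 30 IDs and Rps6 with 13 stand at the right end, beyond Hmgb1 with 10, while 1911 genes have 1 ID.

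Gapdh itself (ENSMUSG00000057666; chromosome 6, 125161852 to 125166467 in GRCm38.p6) was 1 of its 30 IDs. The other 29 had no name in the deposited tables, which is 96.7% of the Gapdh IDs. Rps6 itself (ENSMUSG00000028495; chromosome 4, 86854099 to 86857367) was 1 of 13, and the other 12 had no deposited name (92.3%). The reference gave each of these 41 IDs a provisional gene model name: 39 were numbered Gm models, and the exceptions were 3000002C10Rik, mapped to Gapdh, and AC126040.1, mapped to Rps6. Among the IDs of all other genes in the pathway table, 433 of 2290 (18.9%) had no deposited name, and the models of Gapdh and Rps6 were 8.65% of the 474 unnamed IDs. The gene table also gives protein domains: the Gapdh line names the glyceraldehyde 3-phosphate dehydrogenase domains and the Rps6 lines name ribosomal protein S6e, whereas 0 of the 41 models had a domain. All 3476 IDs without a symbol in the gene table lacked a domain entry, so this holds for any unnamed ID.

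Matched by symbol, RefSeq had a row for 20 of the 29 Gapdh models, and classed 18 as pseudogenes and 2 (Gm5069 and 3000002C10Rik) as transcribed pseudogenes. For Rps6 it had a row for 3 of 12, which were the pseudogenes Gm12242 and Gm8172 and the long non-coding RNA Gm16254. The other 18 models, 9 mapped to each gene, had no row under their reference name and therefore no class, span or position here. A model that RefSeq holds under another symbol would be missed. The deposited tables do not say why an ID was mapped to its Entrez gene.

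The Gapdh gene spans 4616 bases of the genome. Its 20 annotated pseudogenes spanned 526 to 3581 bases with a median of 1207, and 12 of them lay between 1150 and 1250 bases, a window chosen after the values were seen. Gm5710 (1205 bases, chromosome 3), Gm17797 (1206 bases, chromosome 6) and Gm4960 (1208 bases, chromosome 5) lay nearest the median. Gm4529, at 526 bases on chromosome 14, was the shortest, and Gm5069, at 3581 bases on chromosome 1, was the one nearest to the gene in span. The 2 pseudogenes mapped to Rps6 spanned 802 bases (Gm12242) and 1393 bases (Gm8172), against 3269 for the Rps6 gene, and Gm16254 spanned 12715.

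**Figure D2:**
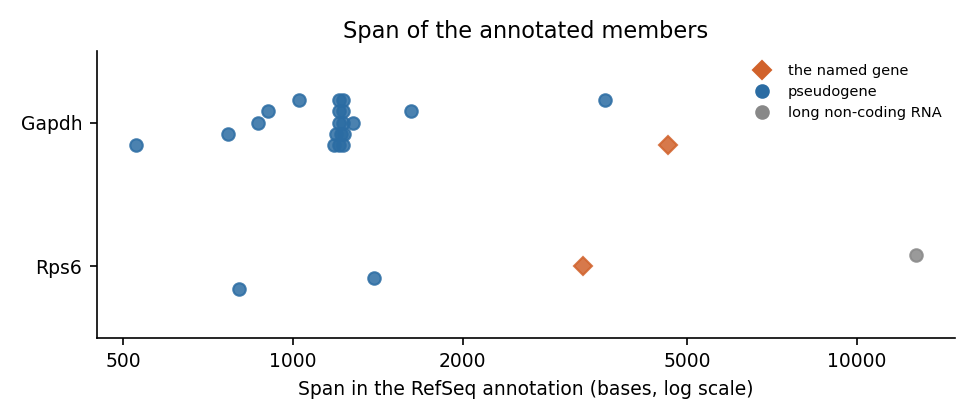
Genomic span in bases (x axis, log scale) of each member with a RefSeq row, by the gene it was mapped to; vertical offsets within a row only separate the points. The Gapdh pseudogenes gather near 1207 bases, well below the 4616 bases of Gapdh, and the long non-coding RNA Gm16254 is the longest member at 12715.

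The annotated Gapdh models were spread over 13 chromosomes, with at most 3 on one (chromosomes 1 and 4), and Gm17797 was the one on chromosome 6 with Gapdh. Of the 23 models with a position, 6 overlapped a protein-coding gene. Gm12419 lay inside Cntln, Gm17797 inside Prickle2, Gm18828 inside Zap70, Gm16254 inside Lrp11 and Gm8172 inside Aff2, while Gm5069 overlapped part of Itpkb. Of these overlapping genes, Aff2 was listed among genes related to differential peaks, on 2 lines. For the other 17 positioned models no other RefSeq gene overlapped, on either strand.

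The gene table lists genes related to differential peaks between the arms, without direction, on 17052 lines for 9225 IDs. All 43 members were in it, as were all 2333 IDs of the pathway table, so this is no trait of the members. The gene table does not say what a line is. Gapdh itself was on 1 line, and its 29 models were on 44 lines, 45 in all. Gm11796, Gm26587, Gm8565 and Gm8824 had 3 lines each, 7 models had 2 and 18 had 1. Thus 11 of the 29 models were on more lines than Gapdh itself, which has the lowest number a listed ID can have. Of all 9225 IDs, 55.6% were on 1 line.

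Rps6 itself was on 2 lines and its 12 models on 17, 19 in all. Gm16254, the long non-coding RNA inside Lrp11, had 4 lines, the most of any member. Gm15842 and Gm48272 had 2 lines each, as Rps6 did, and the other 9 models had 1. Over both genes, 27 of 41 models were on 1 line, beside 1961 of the 3476 unnamed IDs (56.4%) and 5127 of all 9225 IDs (55.6%) in the table.

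**Figure D3:**
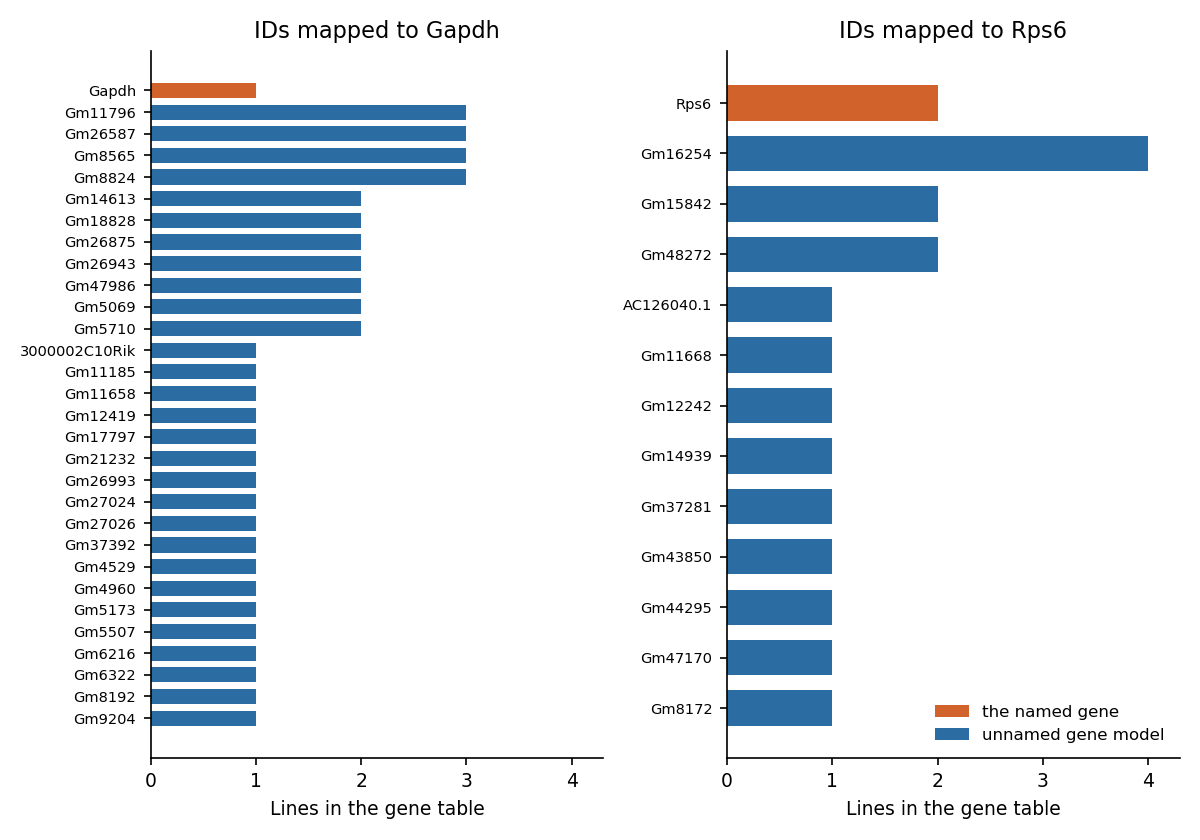
Lines in the table of genes related to differential peaks (x axis) for each ID mapped to Gapdh (left) and Rps6 (right), with the named gene on top. Gapdh has 1 line and Rps6 2, while the models range from 1 to 4 lines, with Gm16254 at 4.

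Gapdh entered 5 and Rps6 entered 6 of the 290 pathways. Both entered HIF-1 signaling, the response to low oxygen, so 10 pathways held one or both genes. In each pathway that a gene entered, all of its IDs were counted: 30 for Gapdh and 13 for Rps6. The 5 pathways with Gapdh were those ranked 1 to 5 by the p-value of the authors' deposited table: metabolic pathways, HIF-1 signaling, Alzheimer's disease, carbon metabolism and biosynthesis of amino acids. The pathways with Rps6 besides HIF-1 signaling were PI3K-Akt signaling at rank 9, mTOR signaling at 11, insulin signaling at 13, proteoglycans in cancer at 18 and EGFR tyrosine kinase inhibitor resistance at 19. In the authors' deposited table the adjusted p was under 0.05 for all 10 of these pathways, and for 194 of the 290 (66.9%). The repeated IDs are part of the input numbers listed beside those p-values, so nothing is read from this. No pathway named Glycolysis or Ribosome was among the 290, and the correction in the authors' deposited table was also made over 290.

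HIF-1 signaling had 102 input IDs against a background number of 110, read here and below as genes. Of the 102, 43 (42.2%) were IDs of Gapdh and Rps6. Counting each Entrez gene once left 53 genes, and removing only the 41 models left 61 IDs. As a percentage of the background, the input was 92.7% by IDs, 55.5% without the models and 48.2% by genes. The p of HIF-1 signaling in the authors' deposited table, 1.61e-28 (adjusted 2.33e-26), stands beside an input number of 102. By the percentage of background HIF-1 signaling stood first of the 290 pathways when IDs were counted and 30th when genes were counted.

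The remaining 59 IDs of HIF-1 signaling belonged to 51 genes, of which 46 had 1 ID. Elob, a subunit of the complex that marks HIF-1 alpha for degradation, had 4 IDs and the glycolytic enzyme gene Eno1b had 3. Pdhb, Pgk1 and the glucose transporter gene Slc2a1 had 2 each. Of the 51 genes, 7 were present through unnamed IDs only, among them Pgk1, Eif4e and Eif4ebp1. Rbx1-ps, by its name a pseudogene, was also among the 7 and was counted beside Rbx1. Counting each Entrez gene once therefore does not drop every copy. The oxygen sensors Egln1, Egln2 and Egln3 and the targets Vegfa, Epo, Hmox1 and Pdk1 were each present once, by their own ID.

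**Figure D4:**
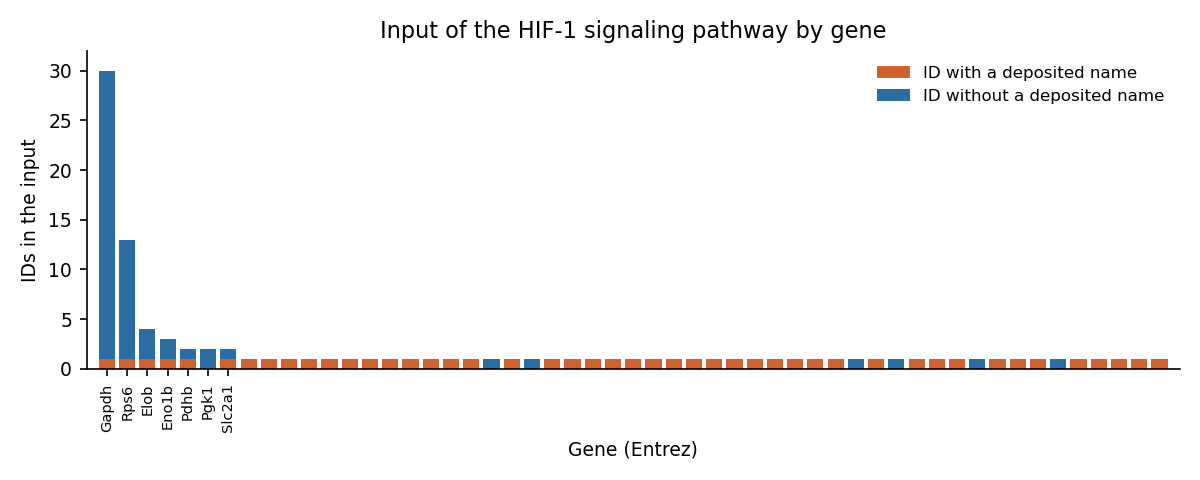
IDs in the input of the HIF-1 signaling pathway (y axis) for each of its 53 Entrez genes (x axis), split by whether the ID has a deposited name; genes with more than 1 ID are labelled. Gapdh and Rps6 hold 43 of the 102 IDs, and 46 genes hold 1 each.

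Biosynthesis of amino acids had 63 input IDs against 79 background genes, 30 of them Gapdh IDs (47.6%). It had 27 distinct genes, 2.33 IDs per gene, the highest ratio of all 290 pathways. Its input fell from 79.7% of the background by IDs to 34.2% by genes, and its place by this percentage moved from 3 to 151. Its p in the authors' deposited table was 4.97e-16 (adjusted 2.88e-14), beside an input number of 63. Carbon metabolism had 81 IDs for 45 genes against 118 (68.6% and 38.1%, from place 7 to 109). Alzheimer's disease had 123 IDs for 72 genes against 177 (69.5% and 40.7%, from place 5 to 83). Metabolic pathways had 503 IDs for 428 genes against 1298 (38.8% and 33.0%, from place 136 to 162). Gapdh IDs were 5.96% of that input, and the 29 Gapdh models were part of its 75 IDs in excess of genes, so that without them the input was 36.5% of the background.

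The pathways that held Rps6 without Gapdh had 1.20 to 1.31 IDs per gene. EGFR tyrosine kinase inhibitor resistance had 55 IDs for 42 genes against 82 (67.1% and 51.2%), insulin signaling 78 for 62 against 142 (54.9% and 43.7%) and mTOR signaling 84 for 69 against 156 (53.8% and 44.2%). Proteoglycans in cancer had 96 for 77 against 208, and PI3K-Akt signaling 144 for 120 against 350. Rps6 IDs were 23.6% of the input of EGFR tyrosine kinase inhibitor resistance and 9.03% of that of PI3K-Akt signaling.

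The 280 pathways without Gapdh or Rps6 had a median of 1.08 IDs per gene, the same as over all 290. More than 1.5 IDs per gene were found in 5 pathways, of which 4 held Gapdh; the exception was phototransduction, with 6 IDs for 3 genes. By the percentage of the background, 5 of the first 8 pathways held a member when IDs were counted, and 0 of the first 8 when each gene was counted once. The cut of 8 was not planned and falls at EGFR tyrosine kinase inhibitor resistance, at place 8 by IDs and 18 by genes. The next pathway with a member by IDs was insulin signaling, at place 27. Between the 2 orders, the 10 pathways with a member moved by a median of 31 places (10 to 148) and the 280 others by 11 (0 to 102). The 2 genes were chosen by their number of IDs, which these counts and places contain, so the differences are a description and support nothing further. What the background number counts is not stated, and in no pathway did the input exceed it.

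**Figure D5:**
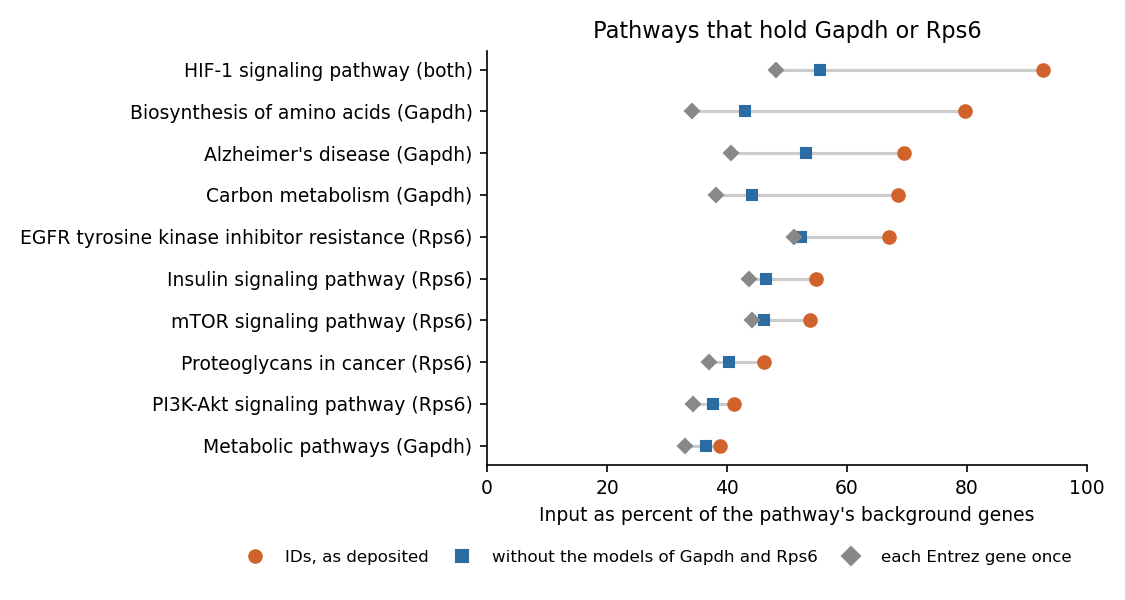
Input as a percentage of background genes (x axis) in the 10 pathways that hold Gapdh, Rps6 or both, by IDs as deposited, without the models of the 2 genes, and with each Entrez gene once. The fall from IDs to genes is widest in biosynthesis of amino acids (79.7% to 34.2%) and HIF-1 signaling (92.7% to 48.2%).

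The Gene Ontology (GO) table of the same series counted the 2 genes once each. Gapdh itself was in the gene lists of 391 of 16568 terms and Rps6 itself in those of 212, with 82 terms holding both, and 0 of their 41 models was in any term. This held for every unnamed ID of the pathway table, 0 of 474, while 1843 of the 1859 named IDs (99.1%) were in a GO term. The term for the enzyme activity of Gapdh (NAD+, phosphorylating) had 1 listed gene of 7 in the background, where the pathway table counted 30 IDs. Glycolytic process had 22 of 76 genes listed (28.9%), gluconeogenesis 30 of 81 (37.0%) and the GAIT complex, a translational silencer that contains Gapdh, 3 of 4. For Rps6, the cytosolic small ribosomal subunit had 11 of 49 (22.4%), structural constituent of ribosome 55 of 180 (30.6%) and TOR signaling 38 of 112 (33.9%). These terms were picked because they hold Gapdh or Rps6, so each counts a gene known to be listed. Of all protein-coding genes of the reference, 25.2% were listed, a background that may differ from that of the terms. Nothing is read from these shares.

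Among 34 genes of glycolysis and gluconeogenesis, 17 (50.0%) were in the gene table by their own ID, beside 5526 of 21900 protein-coding genes of the reference (25.2%). The 17 listed genes include Gapdh, a gene known to be listed, and the difference was not tested. In the pathway table, 17 genes of the 34, all other than Gapdh, had 23 IDs together, fewer than Gapdh alone. Pgam1, phosphoglycerate mutase, had 3 IDs (Pgam1, Gm12413 and Pgam1-ps1), Eno1b 3 and Pgk1, phosphoglycerate kinase, 2, with Pgk1 itself absent. Gapdhs, the sperm form of the Gapdh enzyme, was counted in metabolic pathways through 2 unnamed models, Gm27014 and the pseudogene Gm7741 (1210 bases, close to the median of the Gapdh pseudogenes), while Gapdhs itself was not in the gene table. Enzymes listed by their own ID included Tpi1, Pkm and Eno2 on 1 line each and Fbp1, a gluconeogenic phosphatase, on 3. Hk1, Hk2, Gpi1, Pfkl and Ldha were not listed.

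Of 33 genes of the small ribosomal subunit, 5 (15.2%) were in the gene table, beside 25.2% of all protein-coding genes. The 5 include Rps6, a gene known to be listed, and the difference was not tested. Rps6 was on 2 lines, and Rpsa, Rps27a and Rps27l were among those on 1. Rps6 was the one gene of this list in the pathway table, so the number of IDs mapped to the others is not known. The gene table did hold 38 IDs whose reference name marks them as pseudogenes of ribosomal protein genes, such as Rps12-ps9 on 4 lines and Rps2-ps4 on 3. None of these names was of Rps6, and 1 of the 38 (Rps7-ps2) was in the pathway table. There it was mapped neither to Rps6 nor to Rps7, which had 0 IDs.

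Of 17 genes of the S6 kinases and of mTOR signaling around them, 2 (11.8%) were listed by their own ID, beside 25.2% of all protein-coding genes. The 2 were Rps6kb2, an S6 kinase, and Rheb, the activator of mTOR complex 1, on 1 line each. The pathway table held 7 of the 17, and 5 of the 7 through 1 unnamed model each: Rps6ka1 through Gm12977, Rps6ka5 through Gm49703, Eif4ebp1 through Gm14143, Eif4b through Gm15833 and Eif4e through Gm49765. Mtor, Rptor, Rps6kb1, Tsc1 and Tsc2 were in neither table. Of 20 HIF-1 partners and targets, 10 (50.0%) were listed by their own ID, beside the same 25.2%, and Hif1a, Arnt and Vhl were not.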

How the data were processed

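Read processing in the submitters' notes names BWA 0.7.12, HOMER 4.9.1 and mm10; how differential peaks were called is not given in the sources used here. The KEGG table holds, per the file headers, an input number and a background number for each pathway. The input number equals the count of IDs listed, and the background number is read here as genes, which the headers do not state. Its p-values were computed by the authors by a hypergeometric or Fisher exact test and corrected by Benjamini and Hochberg's method. The GO table and the headerless gene table were used for their ID lists; 63 overflow lines of the GO table were joined to their terms.

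IDs were grouped by the Entrez ID of the KEGG table. A reference list of Ensembl IDs gave names to 9217 of 9225, and classes and spans came from RefSeq rows (GRCm38.p6, a patch release of the mm10 assembly) by symbol. Counts were made in Python (version 3.11.15) with NumPy version 2.4.6, exact intervals in SciPy version 1.17.1 and plots in Matplotlib version 3.10.9. No test was made. The counting was tested on simulated data with invented genes and IDs, in which only the number of genes per pathway was taken from the 290 real pathways. It gave back the count of every pathway (290 of 290) and the IDs of every gene drawn (1985 of 1985). Such a check covers the counting alone and not the mapping of real IDs to Entrez genes. Members and lists were chosen with earlier results of these data known. Named were every pathway the members enter, the genes with the most IDs and members of 4 gene lists; examples within lists were picked after seeing them. The autophagy peak table was not used here, as no line in it names a member. Alternatives counted other IDs, names or genes, and the closing section gives them.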

Additional observations from a re-analysis of the deposited data

How the results depend on the processing

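Of 44 alternative counts, 27 stayed within 1.5 times the deposited count or, for shares, inside the exact Clopper-Pearson 95% interval, and 17 moved. Each one keeps or drops entries of the same tables, so the agreement of the 27 is no sign of stability. By the deposited name in place of the Entrez ID, Gapdh had 1 ID in place of 30 and Rps6 had 1 in place of 13. With only IDs that have a RefSeq row, Rps6 had 4 and Gapdh 21. The lines of the named gene alone were 1 for Gapdh (45 with its models) and 2 for Rps6 (19). With each Entrez gene once, the input was 53 for HIF-1 signaling, 72 for Alzheimer's disease, 45 for carbon metabolism and 27 for biosynthesis of amino acids. Without the models of Gapdh and Rps6 it was 61, 94, 52 and 34 in the same order. Without any unnamed ID it was 46, 61, 39 and 23, and 36 for EGFR tyrosine kinase inhibitor resistance (55 as deposited). Counts of metabolic pathways, PI3K-Akt, mTOR and insulin signaling and proteoglycans in cancer stayed within 1.5 times under all 3 settings. The shares of unnamed IDs stayed at 96.7% and 92.3% by reference name, and were 97.8% and 89.5% when each line was counted. No paired analysis was possible because each group has 1 library and the tables hold no value per library.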
